A study of Mus musculus with 20 samples.

Results

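Of the genes measured in cultured mouse cortical neurons, 8 that make, load, hold or destroy microRNAs (miRNAs) are described here: the circular RNA ciRS-7 (listed as Cdr1as), the long noncoding RNA of its locus (Cdr1os), Cyrano, another long noncoding RNA (under the symbol Oip5os1), and the protein-coding genes Zswim8, Drosha, Dicer1, Ago1 and Ago2. They were chosen by name, and all 8 were present in each of the 4 deposited tables, which together list 14700 genes, 13688 of them in every table. The neurons came from cortex at embryonic day 15 and had spent 7 days in culture. N_WT was wild-type culture kept in normoxia with glucose at 25 mM and pyruvate at 0.2 mM, and OGD_WT was wild-type culture after 12 h of oxygen and glucose deprivation (OGD) at 1% oxygen with no glucose added. N_KO and OGD_KO were the same conditions in neurons with the ciRS-7 knockout. The strain field of every sample, wild type included, reads C57BL/6N-Cdr1asem1Nikr, the name of the mutant line. Each group had 5 libraries of total RNA, made with a stranded kit.

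miRNAs are cut from long transcripts in the nucleus by Drosha, trimmed in the cytoplasm by Dicer1 and loaded into Argonaute proteins, which they guide to partly matching RNAs. Most targets are silenced, but a few with extensive pairing reverse the outcome and send the miRNA to decay, through a ubiquitin ligase whose substrate receptor is the Zswim8 protein. In brain, Cyrano is known as such a trigger for miR-7, and ciRS-7 is a circular RNA dense in miR-7 sites that is itself cut at a near-perfect miR-671 site. The tables measure long RNA. Mature miRNAs were not analysed here.

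The sequences that define this circuit are the miRNAs and their sites, so they are given first, with the seed (miRNA bases 2 to 8), or the stretch complementary to it, in capitals, 5′ to 3′. The mature miRNAs are from RefSeq (GRCm38.p6). Both miR-7 forms share 1 seed, and miR-671 has another.
miR-7a-5p: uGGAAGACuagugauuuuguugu
miR-7b-5p: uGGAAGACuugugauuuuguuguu
miR-671-5p: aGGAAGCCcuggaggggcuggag

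Transcript sequences and positions are from GENCODE mouse release M21 (GRCm38, the assembly also called mm10, which the submitters' processing notes name). The circular exon of ciRS-7 was taken as the 2927-base exon 6 of 7 of a transcript of C230004F18Rik, the GENCODE name for Cdr1os, at chrX:61183248-61186174 on the plus strand. It is a noncoding exon. The letters GTCTTCC, complementary to the miR-7 seed, were searched on the transcript strand, and the exon held 123 of them, overlaps allowed, 34 of which continued as the 8-base site GTCTTCCA. That is 42.0 sites per kb, and the median spacing was 18 bases. Among 12715 genes whose longest transcript reaches the same length, 24.2% had at least 1 match in the first 2927 bases, the highest count was 4, and none had as many as the circle. The longest transcript of each of the 5 protein-coding members held 0 or 1 match. The longest Cdr1os transcript without the circular exon, of 2536 bases, held 0. The annotated exons of Cdr1os cover 24030 bases, circle included, and its other transcripts were not searched.

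Cyrano (GENCODE 1700020I14Rik, ENSMUSG00000085438.1) lies on chromosome 2, from 119594297 to 119607502 on the plus strand. Its longest transcript, of 8300 bases, held 2 matches, both 8-base sites. Of 937 windows of that length, 49.5% held at least 1 match and 17.2% at least as many. A single match is thus no rare feature, and the pairing outside the seed is what sets the second Cyrano site apart. At that site 21 of the 23 bases of miR-7a could pair, with 1 bulge of up to 3 target bases allowed, against 12 of 23 at the first. In the circle the same count ran from 11 to 16 over the 123 matches. The 2 Cyrano sites and 2 of the circle's sites are shown for comparison, in the order in which they occur in each RNA.
Cyrano site 1, chr2:119599964-119599970: ttcaggttttttttttaatGTCTTCCa
Cyrano site 2, chr2:119602154-119602160: gaacaacaaaatcaccaatGTCTTCCa
ciRS-7 site 1, chrX:61183273-61183279: cagtggtgccagtaccaagGTCTTCCa
ciRS-7 site 15, chrX:61183586-61183592: gtcttccagaaaaatccaaGTCTTCCa
The window of ciRS-7 site 15 opens with the match of the site before it. Read against miR-671-5p without gaps, the best window of the circle paired at 19 of 23 bases, in capitals. The best windows in the transcripts searched for the other 7 members paired at 14 to 17.
ciRS-7 window for miR-671, chrX:61186029-61186051: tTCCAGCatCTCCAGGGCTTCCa

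**Figure D1:**
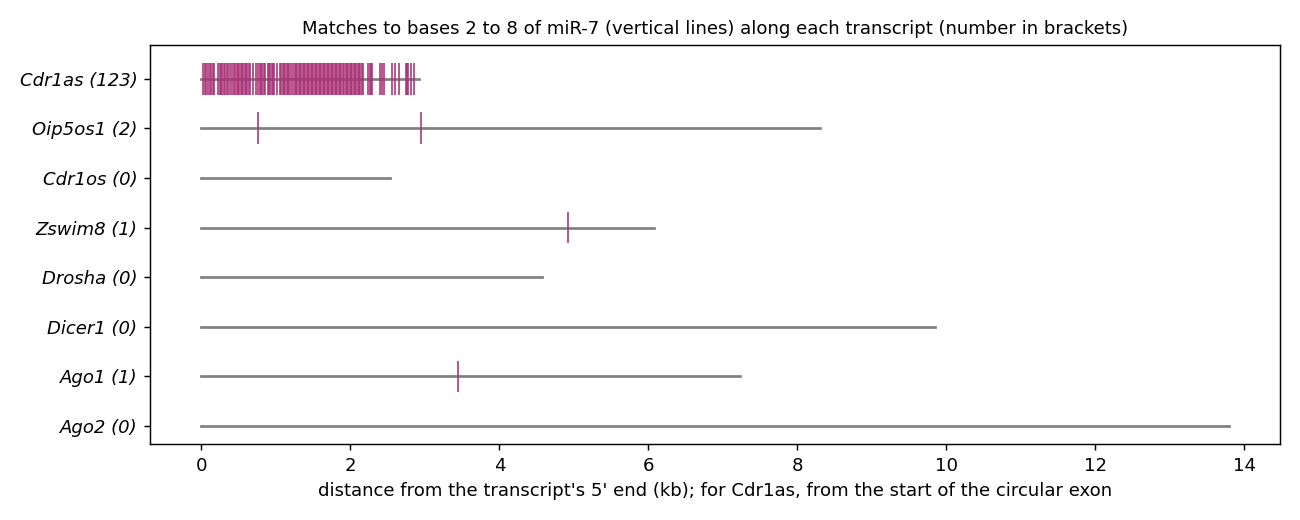
Matches to bases 2 to 8 of miR-7 along the circular exon of ciRS-7 and the longest transcript of each other member (for Cdr1os, the longest without the circular exon), in kb from the 5′ end. Vertical lines are matches; the circle carries 123 and every other transcript between 0 and 2.

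The other members lie apart from both noncoding genes. Zswim8 (ENSMUSG00000021819.11) spans 20707552 to 20723619 of chromosome 14, Ago1 (ENSMUSG00000041530.16) 126435012 to 126468583 of chromosome 4, Ago2 (ENSMUSG00000036698.11) 73095844 to 73184935 of chromosome 15, Dicer1 (ENSMUSG00000041415.10) 104687742 to 104751952 of chromosome 12, and Drosha (ENSMUSG00000022191.16) 12824815 to 12935291 of chromosome 15. Cdr1as and Cdr1os share a strand and a locus, and how the authors assigned reads between them is not given in the sources used here, so both counts are uncertain at their border.

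Levels are given in CPM, counts scaled to sequencing depth: the deposited log2 CPM, with a trimming of extremes undone, turned back to the linear scale with the library size the authors used. Counts per library ran from 7071506 to 16658617, and the mitochondrial rRNA mt-Rnr2 took 10.1% to 16.5% of them in normoxia and 13.8% to 32% under OGD. Its share was highest in OGD_KO replicate 5, which also had the fewest counts of its group. The labels give each culture a batch (1, 2, 3.1, 3.2 or 3.3). In 7009 genes with a mean of at least 200 counts, the mean deviation of a batch's libraries from their groups was 0.198 to 0.629 times as wide as independent libraries would give, so libraries of a batch offset each other. Whether the counts were adjusted for batch before deposit is not given in the sources used here. The labelled cell type was checked on fixed markers: all 10 neuron markers were measured, none of 7 microglia markers, and 6 of 7 astrocyte markers, with summed levels of 5138 to 6429 CPM for neuron and 828 to 1587 CPM for astrocyte markers in normoxia. Under OGD those sums were 2515 to 4542 and 994 to 1983 CPM. Progenitor and cycling markers, 6 of 6 measured, summed to 490.3 to 786 CPM in normoxia and 785 to 1341 CPM under OGD. Oligodendrocyte lineage markers, 7 of 7 measured, summed to 213.1 to 420.8 CPM in normoxia and 210.0 to 440.1 CPM under OGD. In bulk RNA, fewer cells of a type and less RNA per cell cannot be told apart, and the part of these shifts in the results was not tested.

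The knockout removed nearly all Cdr1as signal, in normoxia and under OGD alike. In the table that compares the genotypes in normoxia, the 5 N_WT libraries had 104, 85.8, 94.8, 109 and 100.3 CPM and the 5 N_KO libraries 1.06, 0.455, 0.669, 1.52 and 1.09 CPM. Under OGD the OGD_WT libraries had 112, 45.9, 82.1, 108 and 82.0 CPM, and the OGD_KO libraries 0.135, 0.791, 0.930, 0.967 and 1.39 CPM. No knockout library came near any wild-type library, and every label fitted its Cdr1as level. The mean of the knockout was 0.970% of wild type in normoxia and 0.979% under OGD, from 51 and 45 counts over 5 libraries. On the fitted log2 scale Cdr1as fell by 6.32 in normoxia (SE 0.19, limma adjusted p = 5.81e-14). Under OGD it fell by 6.26 (SE 0.30, limma adjusted p = 1.03e-09). Both p-values were the smallest of their table. These falls are 79.8-fold and 76.4-fold, against 103-fold and 102-fold for the means. The deposited log2 values include a small added count, 2.49 to 4.87 in N_KO, where Cdr1as had 5 to 16 counts per library.

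Cdr1os, the host transcript from which the circle is spliced, moved the other way. In normoxia it stood at 12.0, 10.5, 14.4, 17.1 and 15.5 CPM in N_WT and at 30.1, 23.7, 37.3, 34.5 and 47.1 CPM in N_KO, with no overlap. It was 2.42-fold higher in the knockout (95% interval 1.88 to 3.13, limma adjusted p = 0.0034). Under OGD the libraries had 9.67, 7.07, 9.49, 11.6 and 11.7 CPM in OGD_WT and 28.3, 27.6, 19.6, 19.98 and 16.04 CPM in OGD_KO, again without overlap and 2.20-fold higher (95% interval 1.68 to 2.87, limma adjusted p = 0.0305). Under OGD the call was lost when any 1 of 8 of the 10 libraries was left out (log2 fold change 1.02 to 1.20, adjusted p 0.0675 to 0.197) and held without OGD_KO replicate 5 or OGD_WT replicate 5; it was also lost with library totals as the scale (1.14, adjusted p = 0.121) and with the full batch label in the fit (1.07, adjusted p = 0.0641). In the batch 3 cultures alone the log2 fold change was 1.24 in normoxia (adjusted p = 0.15) and 1.06 under OGD (adjusted p = 0.51).

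The 6 members from other loci showed no call between the genotypes. Only 5 of 14152 genes were called in normoxia (0.0353%) and 4 of 14185 under OGD (0.0282%), and Cdr1as and Cdr1os were 2 of them each time. For Cyrano the knockout to wild-type ratio was 1.00 in normoxia (95% interval 0.822 to 1.22) and 0.981 under OGD (0.716 to 1.34). For Zswim8 it was 1.04 (0.884 to 1.22) and 1.06 (0.780 to 1.45), and for Dicer1 0.999 (0.786 to 1.27) and 1.10 (0.840 to 1.45). These intervals leave room for changes of about the width they state and do not show equality.

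Cyrano was lower under deprivation in both genotypes, while ciRS-7 showed no call. The fitted level of Cyrano was 0.462 of the normoxic one in wild type (95% interval 0.360 to 0.592) and 0.459 in the knockout (0.348 to 0.605). In the tables that compare treatments, Cyrano had 401, 444, 501, 536 and 520.5 CPM in N_WT and 236, 176, 216, 333 and 175 CPM in OGD_WT. In the knockout it had 460.5, 473, 440.0, 398 and 584 CPM in N_KO and 241, 205, 222, 301 and 136 CPM in OGD_KO. In neither genotype did the groups overlap, and the level fell in 5 of 5 cultures of each. Cyrano fell by 1.11 on the log2 scale in wild type (95% interval -1.47 to -0.76, limma adjusted p = 2.83e-05) and by 1.12 in the knockout (-1.52 to -0.73, limma adjusted p = 0.000143). As a share of the normoxic level it fell by 53.8% and fell by 54.1%, respectively. The size varied between cultures, from -0.69 to -1.57 in wild type and from -0.40 to -2.10 in the knockout, where replicate 5 set the lower end. The call held in all 18 alternative fits of each genotype that are described at the end.

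On the authors' scale, neuron markers moved in the same direction as Cyrano: 5 of 10 fell and none rose in wild type. In the knockout 7 of 10 fell. The median log2 fold changes were -0.48 and -0.59. Over all genes 44.3% and 40.9% were called in these comparisons. With library totals as the scale 9 of 10 neuron markers were called lower in each genotype, beside 5726 of 14235 and 5265 of 14375 genes. Slc17a7, the vesicular glutamate transporter of excitatory neurons, fell by 1.69 in wild type and 1.62 in the knockout (limma adjusted p = 7.24e-07 and 3.28e-05), and Syt1, a calcium sensor of synaptic vesicles, fell by 1.21 and 1.46. The part of these shifts in the fall of Cyrano was not tested.

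**Figure D2:**
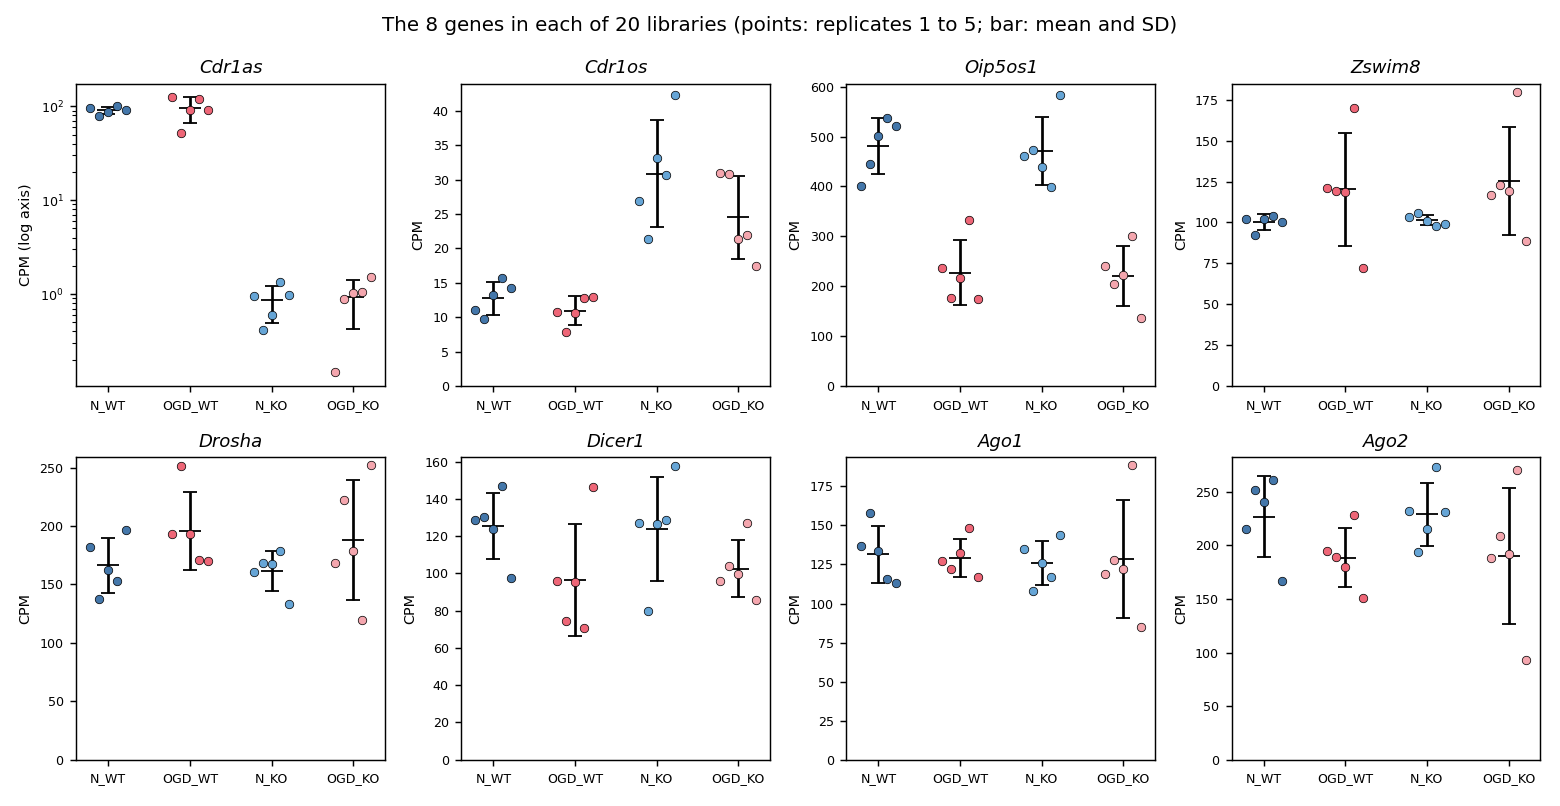
CPM of the 8 genes in each library of N_WT, OGD_WT, N_KO and OGD_KO (points; bars are mean and SD, n = 5; log axis for Cdr1as only), on the scale of the tables that compare treatments. Oip5os1 separates the 2 conditions in both genotypes, Cdr1as and Cdr1os separate the genotypes, and the other 5 overlap throughout.

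Cdr1as itself was at 95.2, 79.0, 86.7, 99.7 and 92.0 CPM in N_WT and 124, 51.3, 91.2, 119 and 91.3 CPM in OGD_WT. Deprived libraries lay on both sides of the normoxic ones, and the log2 fold change was 0.02 (95% interval -0.38 to 0.41, limma adjusted p = 0.957). The coefficient of variation rose from 8.83% in N_WT to 30.4% in OGD_WT, where replicate 2 was lowest. Cdr1os was lower under OGD in all 5 wild-type cultures, by 0.04 to 0.31 log2 units, and in 3 of 5 knockout cultures. Neither change was called (-0.21, adjusted p = 0.332, and -0.33, adjusted p = 0.177, limma).

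The ratio of 2 genes in 1 library does not depend on how libraries are scaled. Cyrano had 4.90 counts per Zswim8 count in N_WT at the median (range 3.92 to 5.18) and 1.95 in OGD_WT (1.47 to 2.41). In the knockout the ratio was 4.45 in N_KO (4.07 to 5.90) and 1.68 in OGD_KO (1.53 to 2.07). The groups did not overlap in either genotype (two-sided exact permutation test p = 0.00794, and 0.0227 adjusted over 20 such ratio tests). That p is the smallest that 5 against 5 allows, with libraries taken as independent and the N and OGD pairs of a culture not kept. Cyrano per Cdr1as went from 5.62 (4.21 to 5.78) in N_WT to 2.37 (1.90 to 3.42) in OGD_WT, with the same p-values. In wild type the balance between the 2 miR-7 binding RNAs thus moved by 1.13 log2 units (1.04 to 1.25 with any 1 library left out).

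Zswim8, the substrate receptor of the ligase for Argonaute in miRNA decay, was the steadiest member in normoxia. It had 102, 92.1, 102, 104 and 100.5 CPM in N_WT and 104, 106, 101, 97.9 and 98.9 CPM in N_KO, coefficients of variation of 4.69% and 3.22%. Under OGD it had 121, 119, 118, 170.2 and 72.4 CPM in wild type and 117, 123, 119, 179.6 and 88.8 CPM in the knockout. The same replicate numbers held the extremes in both genotypes, 4 the highest and 5 the lowest. Their batches were 3.3 and 3.1 in wild type and 3.1 and 3.3 in the knockout. Each of these batches thus held a highest and a lowest library, and libraries of a batch offset each other, as described above. The part of batch in these extremes was not tested. The log2 fold change was 0.21 in wild type and 0.27 in the knockout (limma adjusted p = 0.336 and 0.199). Without OGD_WT replicate 5 it was 0.38 (adjusted p = 0.0377), and without OGD_KO replicate 5 also 0.38 (adjusted p = 0.0437).

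Drosha, the nuclear RNase III of the Microprocessor, and Dicer1, the cytoplasmic RNase III, went in opposite directions without a call. Drosha had 138 to 197 CPM in N_WT (median 162) and 170.4 to 252 in OGD_WT (median 193), and 133 to 178 in N_KO and 119 to 252 in OGD_KO. Its log2 fold changes were 0.23 (adjusted p = 0.227) and 0.18 (adjusted p = 0.447, limma), higher in 4 of 5 cultures of each genotype. Dicer1 had 128, 130, 124, 147 and 97.5 CPM in N_WT and 96.1, 74.6, 95.1, 70.6 and 146 CPM in OGD_WT. Replicate 5, lowest in normoxia, was highest under OGD, and the other 4 cultures were lower under OGD by 0.38 to 1.05 log2 units. The log2 fold change was -0.41 (95% interval -0.78 to -0.04, limma adjusted p = 0.0651), and -0.57 (adjusted p = 0.00318) without OGD_WT replicate 5 and -0.50 (adjusted p = 0.0269) without N_WT replicate 5. In the knockout it was -0.25 (adjusted p = 0.261), and -0.40 (adjusted p = 0.0439) without N_KO replicate 2. The values as deposited, with extremes drawn inwards, gave a call for Dicer1 in both genotypes (adjusted p = 0.00379 and 0.0422). Drosha per Dicer1 was 1.31 in N_WT and 2.03 in OGD_WT at the median (exact permutation p = 0.0794, adjusted p = 0.159).

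Ago1 and Ago2 encode Argonaute proteins, of which Ago2 is the one that slices. Ago1 ranged from 113 to 158 CPM in N_WT, 117 to 148 in OGD_WT, 108 to 144 in N_KO and 84.7 to 188 in OGD_KO, with log2 fold changes under OGD of -0.02 and -0.01. Ago2 had 215, 252, 240.1, 261 and 166 CPM in N_WT and 194, 190, 180, 228 and 151 CPM in OGD_WT. It was lower in 5 of 5 wild-type cultures, by 0.14 to 0.42 log2 units, and in 4 of 5 knockout cultures, where OGD_KO replicate 5 had 93.0 CPM and the others 188 to 270.1. The log2 fold changes were -0.26 (95% interval -0.59 to 0.06, limma adjusted p = 0.185) and -0.34 (-0.79 to 0.12, limma adjusted p = 0.222). The deposited values gave a call in wild type (-0.29, adjusted p = 0.0346). Ago2 per Ago1 was 1.59 in N_WT and 1.53 in OGD_WT (exact permutation p = 0.0714, adjusted p = 0.159, or 0.0227 without N_WT replicate 5), and 1.73 in N_KO and 1.57 in OGD_KO (exact permutation p = 0.0159, adjusted p = 0.0397). The latter call was lost in 8 of 10 tests with 1 library left out and held without N_KO replicate 5 or OGD_KO replicate 2 (adjusted p 0.0397 to 0.139).

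**Figure D3:**
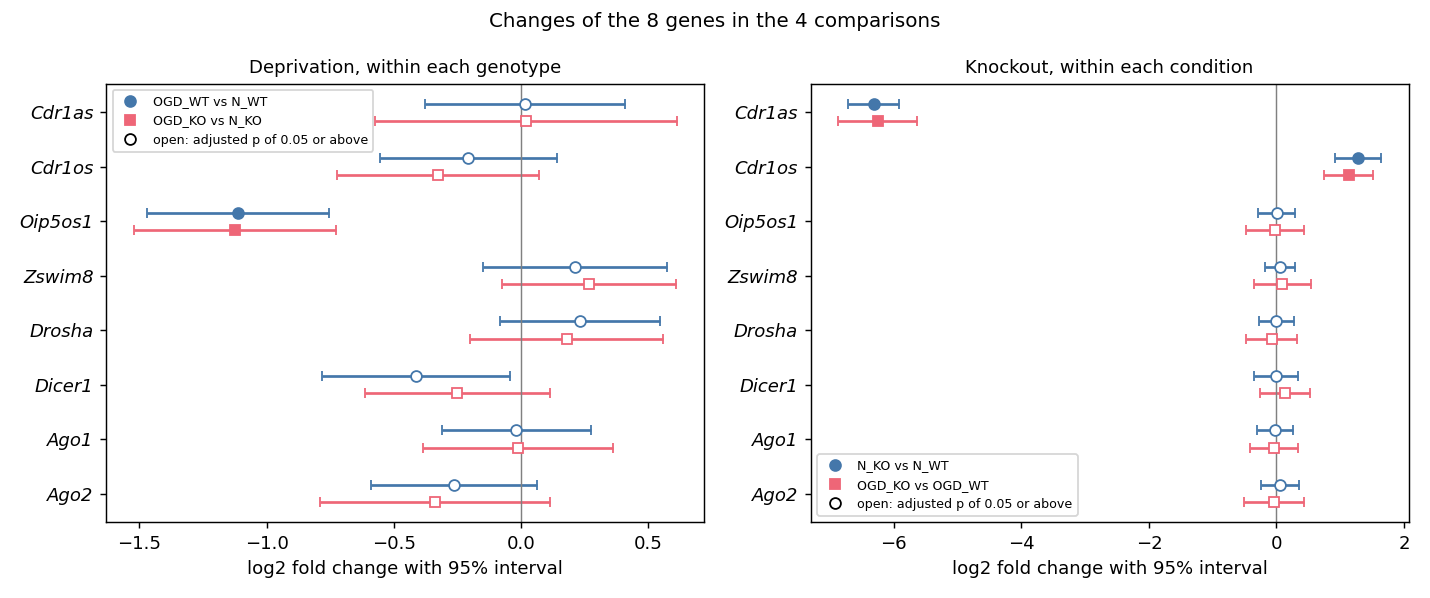
Log2 fold changes with 95% intervals for the 8 genes under deprivation (left; blue circles wild type, red squares knockout) and in the knockout (right; blue circles normoxia, red squares deprivation); filled symbols were called. Only Oip5os1, at -1.11 and -1.12, was called on the left, and only Cdr1as and Cdr1os on the right.

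Across the 8 members, 1 of 8 was called under OGD in each genotype, Cyrano both times, as lower. The background was high: 44.3% of 14235 genes were called in wild type (21.6% higher, 22.8% lower) and 40.9% of 14375 in the knockout (21.0% higher, 19.9% lower). The median log2 fold change of the members was -0.11 and -0.13, beside -0.03 and 0.00 over all genes. The 2 OGD comparisons share no library, and the difference between their effects was tested for each gene over all 20 libraries. None of 13688 genes, members included, had a limma adjusted p under 0.05 (0.0% called, 100 with an unadjusted p under 0.05, none of them a member). The difference of the Cyrano effects was -0.02 log2 units (95% interval -0.64 to 0.59), and that of Dicer1, the largest among the members, was 0.15 (-0.45 to 0.75).

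Scaling each library to its total count, mt-Rnr2 included, moved the median of all genes by -0.28 in wild type and -0.29 in the knockout. Calls over all genes then split into 1614 higher and 5726 lower in wild type, against 3069 and 3244 on the authors' scale, and into 1463 and 5265 in the knockout, against 3021 and 2863. Cyrano was lower on every scale, by 1.40 and 1.42 with library totals. Cdr1os, Ago2 and Dicer1 were then also called as lower in both genotypes, while Zswim8 and Drosha, above 0 on the authors' scale, came to -0.07 and -0.05 in wild type and -0.02 and -0.11 in the knockout, uncalled on both scales.

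**Figure D4:**
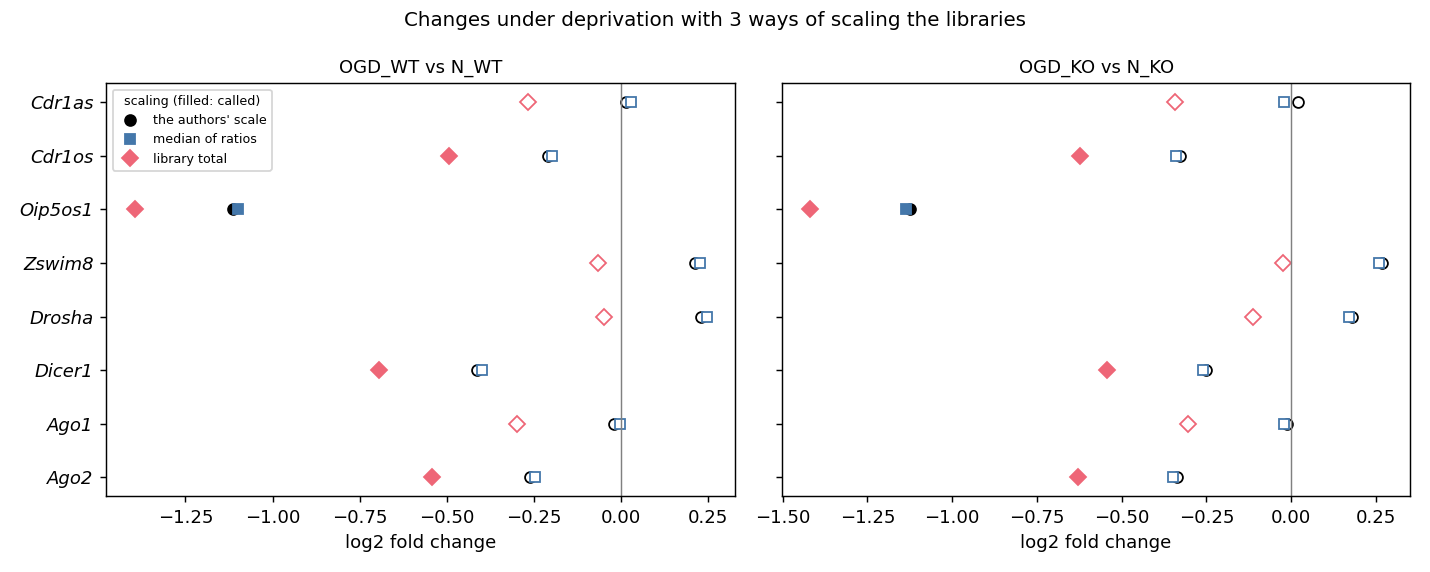
Log2 fold change of each member under deprivation with the authors' scale (black circles), median-of-ratios scaling (blue squares) and library totals (red diamonds); filled symbols were called. The first pair lie together, library totals move all members to lower values, and Oip5os1 is below -1 on each.

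Levels can be compared between genes only per length. Per kb of annotated exon, Cyrano had 57.9 CPM per kb ± 6.8 (SD, n = 5) in N_WT, the highest of the 7 members with a length of their own. Cdr1as followed at 30.9 ± 2.7 (SD, n = 5) over its circular exon and Drosha at 28.0 ± 3.9 (SD, n = 5), which overlapped each other. Ago1 at 16.2 ± 2.2 (SD, n = 5) and Ago2 at 16.2 ± 2.7 (SD, n = 5) could not be ordered, and Zswim8 at 11.7 ± 0.5 (SD, n = 5) overlapped the lowest Ago2 library. Dicer1 at 7.48 ± 1.06 (SD, n = 5) came last, below every Zswim8 library. In OGD_WT the upper 3 overlapped, with Drosha at 33.0 ± 5.6, Cdr1as at 32.6 ± 9.9 and Cyrano at 27.4 ± 7.8 CPM per kb (SD, n = 5). Cdr1os was left out because its annotated exons include the circle.

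The other genes of these pathways came from fixed lists, whose counts are read beside the share of all genes called. With library totals, 1614 of 14235 genes were called higher and 5726 lower in wild type. In the knockout these were 1463 and 5265 of 14375. Of 16 genes of the Microprocessor, pre-miRNA export and dicing, 3 rose and 3 fell in wild type, 3 rose and 4 fell in the knockout, and 5 were called the same way in both. Dgcr8, the RNA-binding partner of Drosha, fell by 0.77 in wild type and 0.58 in the knockout (limma adjusted p = 0.00038 and 0.00552). Ncbp2, a subunit of the nuclear cap-binding complex, fell by 0.92 and 0.69. Srsf3, a splicing factor that helps Drosha find its cleavage site, rose by 0.60 in both genotypes (limma adjusted p = 0.00193 and 0.0062). Srrt, a cap-binding complex partner, rose by 0.71 in wild type and Ran, the GTPase of nuclear export, by 0.44 in wild type and 0.56 in the knockout. With library totals no gene of this list was called higher, and 6 and 5 were called lower.

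Of 28 Argonaute and silencing effectors, 7 rose and 3 fell in wild type and 5 rose and 2 fell in the knockout, 6 of them called the same way in both. Both subunits of the PAN2-PAN3 deadenylase, which shortens poly(A) tails, were among those that rose: Pan2 by 0.71 and 0.86 (limma adjusted p = 0.00118 and 0.000812), and Pan3 by 0.65 and 0.62. Hsp90ab1, a chaperone of Argonaute loading, rose by 0.48 in wild type and 0.54 in the knockout. Tnrc6b, a scaffold that joins Argonaute to deadenylases, fell by 0.69 in wild type (limma adjusted p = 0.00211) and was at -0.61 in the knockout (adjusted p = 0.0851). Of 8 measured genes of the CCR4-NOT deadenylase complex, Cnot9 fell by 0.65 in wild type and 0.46 in the knockout, and Cnot6l by 0.49 and 0.57. Cnot1, the scaffold of the complex, rose by 0.45 in wild type (limma adjusted p = 0.0138) and was at 0.39 in the knockout (adjusted p = 0.0661), and on the authors' scale no other of the 8 was called. With library totals Cnot1 was at 0.17 in wild type (adjusted p = 0.358). Neither Ago3 (0.23 and 0.37) nor Ago4 (-0.31 and -0.21) was called. With library totals 1 rose and 9 fell in wild type, and 1 rose and 8 fell in the knockout. With the culture as a replicate block, 3 rose and 1 fell in the knockout, for which the share over all genes is not given here.

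Of 19 genes of miRNA tailing, trimming and decay that were measured (20 listed, without Lin28a), 2 rose and 3 fell in wild type and 1 rose and 3 fell in the knockout. Tut4, a terminal uridylyltransferase, rose by 0.65 and 0.63 (limma adjusted p = 0.00093 and 0.00242). Lin28b, which binds let-7 precursors, fell by 0.54 and 0.46 (limma adjusted p = 0.0143 and 0.0334). Trim71, a let-7 target, fell by 0.77 and 0.90, and Tsnax, a subunit of the C3PO nuclease, by 0.54 and 0.46. Of the partners of Zswim8 in its ligase, Cul3, Elob, Eloc and Arih1 had log2 fold changes of 0.23, -0.23, -0.22 and 0.39 in wild type, none of them called. With library totals 1 gene of the list rose and 7 fell in wild type, and 0 rose and 6 fell in the knockout.

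Of 12 measured genes of circular RNA formation, export and decay (13 listed, without Qki), 4 rose and 1 fell in each genotype, the same 5 genes. Ilf2, which encodes an RNA-binding protein linked to circular RNA formation, rose by 0.61 in wild type and 0.69 in the knockout (limma adjusted p = 0.00541 and 0.00948). Ddx39b, a helicase of RNA export, rose by 0.48 and 0.49, and G3bp2, a stress granule protein, fell by 0.75 and 0.67 (limma adjusted p = 0.00058 and 0.00224). With library totals 1 rose and 4 fell in wild type, and 0 rose and 1 fell in the knockout.

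Of 23 measured miRNA host genes, 4 rose and 6 fell in each genotype, 7 of them called the same way in both. Mir22hg fell by 1.20 and 0.92 (limma adjusted p = 4.92e-05 and 0.000581), and Pank2 by 0.79 and 0.77. Mir99ahg, host of a let-7 and miR-99 cluster, rose by 0.78 and 0.76, and Mir17hg, host of the miR-17 to miR-92 cluster, by 0.75 and 0.73. The miR-7a host Hnrnpk rose by 0.43 and 0.48 (limma adjusted p = 0.027 and 0.0287), and Chpf2, host of miR-671, was at -0.04 and -0.06. With library totals 2 rose, Mir99ahg and Mir17hg, and 14 fell in wild type. In the knockout 1 rose, Mir99ahg, and 9 fell, so the rise of Hnrnpk was called in neither genotype. In the knockout the replicate block gave 3 and 3, again without a share over all genes. A host's level is not that of its miRNA.

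Of 8 other long noncoding RNAs, of which Meg3 and Rian are also on the list of hosts, 2 rose and 3 fell in wild type and 2 rose and 4 fell in the knockout: Neat1, the paraspeckle scaffold, rose by 2.54 and 2.31, Malat1, a nuclear speckle RNA, by 1.12 and 1.23, and Tug1 and Meg3 fell by 0.73 and 0.51 in wild type and by 0.71 and 0.58 in the knockout. With library totals 2 rose and 6 fell in each genotype. The fall of Cyrano, at 1.11 and 1.12, exceeded those of Tug1 and Meg3 in each genotype, a difference that was not itself tested. Among the genes named from the lists, the calls of Ran, Hsp90ab1, Lin28b and Meg3 in the knockout held in 6, 7, 9 and 9 of 18 alternative fits. No gene of these 6 lists was called between the genotypes.

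**Figure D5:**
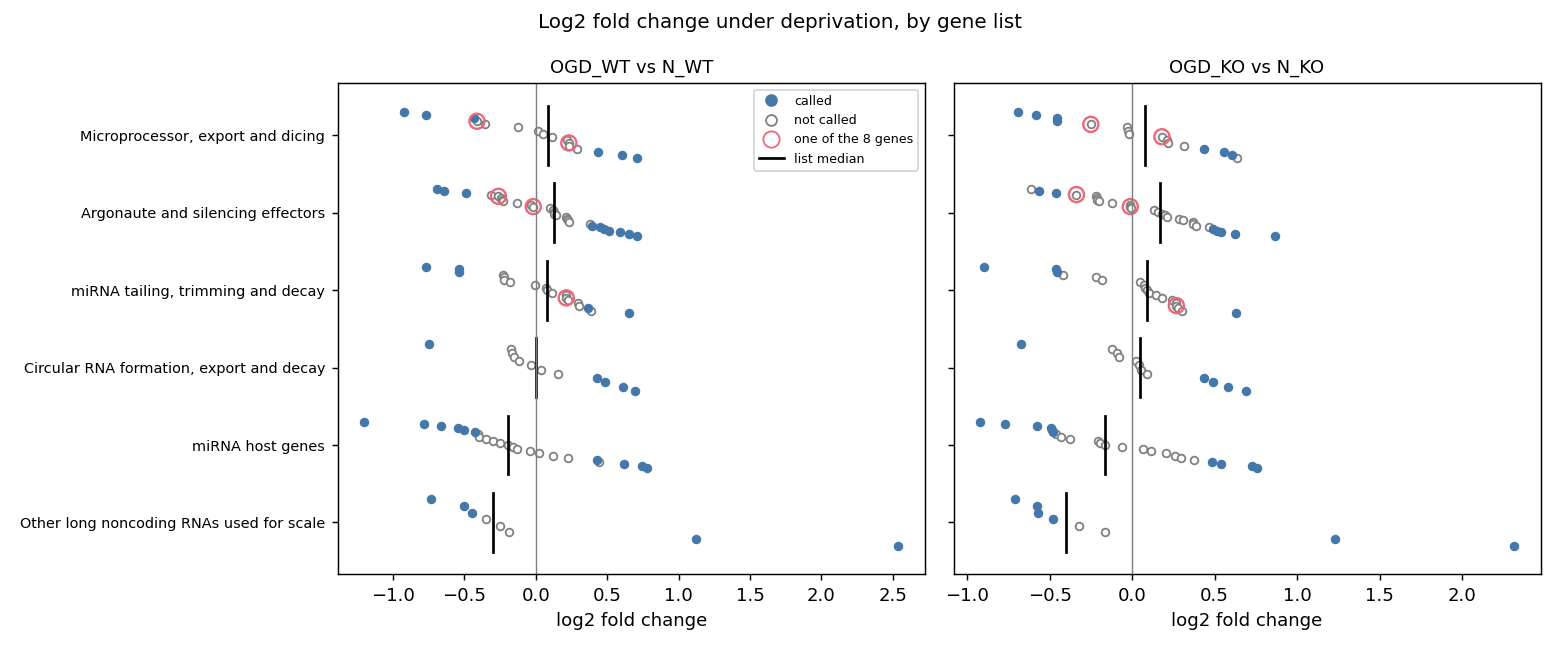
Log2 fold change under deprivation of each gene of 6 lists in wild type (left) and the knockout (right): filled, called; open, not called; red rings, members; black bars, list medians. The medians of the lists lie between -0.30 and 0.13 in wild type and between -0.40 and 0.17 in the knockout, with called genes on both sides of 0 in each list.

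The genes whose pattern over the libraries was most like that of a member were found by Pearson's r among the 12686 genes whose average log2 CPM reached 1, as a description over libraries that share condition and depth. Over 20 libraries Cyrano was most like Mblac2 (0.991), Uhmk1 (0.989) and Fam102a (0.987). Zswim8 was most like Nf1 (0.909), Rlim (0.887), itself a ubiquitin ligase gene, and Zfand5 (0.856), and Cdr1os was most like Cdhr1 (0.771), followed by a gene known only by its identifier (0.748) and Tshz2 (0.733). Over 20 libraries Cdr1as was most like Gm15387 (0.718), Gm10282 (0.651) and Gm15564 (0.645), where the genotypes set its pattern, and over the 10 wild-type libraries most like Gm38380 (0.942), Gm42974 (0.932) and Fam135a (0.919).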

How the data were processed

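The authors deposited 4 tables of log2 CPM, 1 per comparison, with 10 libraries each, as the table names and values show; the aligner, the counting and any batch adjustment are not given in the sources used here. In each gene and group of 5, the deposited log2 extremes were drawn inwards (weights 0.6 and 0.4), which was inferred from the values and inverted. The genome was mm10, per the submitters' processing notes, and GENCODE M21 and RefSeq served only for positions and sequences. At least 99.91% of values up to 500 counts then came out whole within 0.05, against 45.5% to 92.8% as deposited. Each comparison was fitted in its own table by limma (version 3.58.1, R version 4.3.3; eBayes with a mean trend, two-sided), with Benjamini-Hochberg adjustment over all genes, and called under an adjusted p of 0.05. Intervals are 95%. The interaction and the search for like patterns used log2 CPM of the recovered counts over library totals (prior count 2), and the interaction limma's duplicateCorrelation, each culture being a block. Nothing says that replicates came from separate litters, so p-values measure the spread between these samples. The main fits of the comparisons hold no batch or culture term and take libraries as independent, as do the ratio tests. The offset between libraries of a batch departs from that.

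N and OGD libraries of one number share the culture and batch label, which pairs them. Their deviations correlated at -0.656 to 0.0475 in wild type and -0.770 to -0.0748 in the knockout. Numbers do not pair the genotypes. Members, lists and tests were chosen with earlier results of these data known, and the ratio tests and the full batch label were added after seeing the data. Besides the members, the genes named were up to 4 called genes of largest change per list and OGD comparison, any list gene called between genotypes, and the 3 nearest patterns. Ago3, Ago4, Cnot1, Cul3, Elob, Eloc, Arih1, Hnrnpk, Chpf2 and mt-Rnr2 were named after their values were seen, and 1 gene that the rule covers is not reported here. The alternatives were the values as deposited, other scalings and prior counts, limma voom, a low-value filter, each library left out, batch terms, batch 3 cultures alone and the replicate block. Of the marker lists, 4 of 6 astrocyte genes were called in wild type and 2 in the knockout, 2 of 7 oligodendrocyte lineage genes in each, 4 and 3 of 6 progenitor genes, and the 1 endothelial gene of 3 that was measured, in both. Code was tested on simulated data.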

Additional observations from a re-analysis of the deposited data

Results flagged for a closer look

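In N_WT the log2 CPM of Zswim8 in replicate 2 was 6.53, below the other 4 libraries, which lay between 6.66 and 6.70. Its gap to the nearest library was 0.728 of the group's range, over Dixon's 95% limit for 5 libraries. Of 32 groups of values examined (8 genes in 4 groups) it was the 1 that stood out this way, where chance gives about 1 in 20, or 1.6.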

How the results depend on the processing

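Among the 8 members, 1 was called under OGD in wild type; 3 were with the values as deposited, 4 with library totals, and 1 to 3 with any 1 library left out. In the knockout 1 was called; 2 were with the values as deposited, 4 with library totals, and 1 to 2 with any 1 library left out. Between genotypes 2 were called in normoxia, and 1 with the batch 3 cultures alone. Under OGD 2 were called between genotypes, but 1 with library totals, the batch 3 cultures alone, the replicate block, the major batch or the full batch label as a covariate, and 1 to 2 with any 1 library left out; the lost call was Cdr1os each time. The fit with the replicate block called 1 under OGD in each genotype and 2 between genotypes in normoxia, as without it. Between genotypes that block joins unpaired cultures by number alone, so its calls there, kept or lost, are no check of the result. Of the interaction, 0 members were called in every alternative run. Of 711 alternative values of single members, 683 stayed on their side of the threshold, 14 gained a call and 14 lost one, and no called value changed sign; 89 uncalled values changed sign. The causes of these differences were not tested, except that batch 3 alone and left-out libraries use fewer samples.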
